A study of Rattus norvegicus with 6 samples.

Results

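The NRF2 targets and antioxidant enzymes described here are 10 genes, Nqo1, Gclc, Gclm, Txnrd1, Srxn1, Prdx1, Sod1, Sod2, Cat and Gpx1, listed by name. A row of the expression table under the symbol was found for 9 of the 10, and these 9 passed the filter on low values, as did 10942 of the 28293 genes in the table. The expression of Srxn1 was not analysed here. RNA came from the myocardium of wild-type (WT) male rats. The I/R group (n = 3) had the left anterior descending coronary artery ligated for 30 min and the heart collected after 6 h of reperfusion, and the sham group (n = 3) carries the same times in its labels. The labels give 1 surgical protocol (anaesthesia, ventilation, thoracotomy and ligation) for all samples without saying which steps the sham rats had, and strain and age are not given in the sources used here. The tissue is bulk myocardium, and which region of the heart it came from relative to the ligature is not given in the labels. Nothing in the labels says whether each sample is 1 heart or a pool, so the p-values measure the spread between these samples.

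NRF2, encoded by Nfe2l2, is a transcription factor that KEAP1 holds in the cytoplasm and passes to the proteasome. Oxidants and electrophiles modify KEAP1, NRF2 then enters the nucleus, pairs with a small MAF protein and binds antioxidant response elements in the promoters and enhancers of its targets. Those targets make glutathione, regenerate thioredoxin and reduce quinones, while superoxide dismutases, catalase, glutathione peroxidases and peroxiredoxins remove superoxide and hydrogen peroxide directly. Reperfused heart muscle is a known source of superoxide, because oxygen returns to mitochondria that hold reduced electron carriers.

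The values are FPKM, which are fragments per kilobase of transcript scaled to the size of the library. Whole fragments could be recovered from the steps of the FPKM values, as the smallest whole numbers that give them. This gave 42221073, 49848438 and 47945186 fragments in sham replicates 1 to 3 and 36848184, 39480833 and 37206448 in I/R replicates 1 to 3. These are estimates, and the true counts could be a multiple of them. Transcripts of the 13 mitochondrial protein-coding genes took 80.1% to 86.2% of the summed FPKM in sham samples and 61.8% to 71.5% in I/R samples. FPKM is a share of a library. The median log2 fold change of all tested genes was 0.29, and changes are read against it below. Cardiomyocyte markers were present in each sample, with a summed FPKM of 3219 to 10510 in sham and 21170 to 30371 in I/R. Of the 6 tested, 5 were called higher in I/R, beside 25.5% of all tested genes, with a median log2 fold change of 2.10. Among genes averaging 5 FPKM or more these 5 stood beside 1892 of 3784 called higher. Pln was also listed as a marker and had no row.

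Antioxidant response elements have the core letters TGACNNNGC, where N is any base. Promoters of 300 bases, from 250 before to 50 after the start of transcription, were taken from RefSeq on the GRCr8 build, matched by symbol for the 10 genes and searched on both strands. Of the 10 genes, 4 held the core, and the 4 matching stretches are shown because they are where these promoters carry the letters that NRF2 and small MAF proteins read. Each is 30 bases, written 5′ to 3′ along the gene's own strand, with the match in capitals. All 4 matches read TGACNNNGC on the opposite strand, so the capitals are its reverse complement.
Sod2, chr1:50050184-50050213, minus strand, 35 bases before the start: ggcgctgccgGCAGGGTCAgcgcctagctg
Gclm, chr2:213031953-213031982, plus strand, 172 bases before the start: tgcggtttctGCTTAGTCAttgtcttccag
Prdx1, chr5:135383761-135383790, plus strand, 135 bases before the start: cagggaaagcGCTGAGTCAtaccccgccgg
Txnrd1, chr7:22755963-22755992, minus strand, 78 bases before the start: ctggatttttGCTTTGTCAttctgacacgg
The Txnrd1 match lay in 1 of the 2 promoters listed for that gene. Both of those starts lie inside the gene, downstream of the 5′ end that RefSeq gives it, and the one with the match is the farther from that end. In Prdx1 the match overlaps the letters TGACTCA, the sequence read by AP-1 factors. The share of genes with a match was 40% of the 10 members and 23.8% of the 63 related genes, described below, that could be matched. It was 13.1% of the 27457 genes with a promoter in the table and 15.7% of the 8022 tested genes that could be matched. The difference between these shares was not tested. No match in Nqo1, Gclc, Srxn1, Sod1, Cat or Gpx1 says only that these letters are not in these 300 bases.

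In sham myocardium the enzymes differed widely in level per length. Gpx1, Prdx1 and Sod1 were the most abundant, with means of 70.0 ± 26.8, 54.1 ± 5.80 and 52.9 ± 23.2 FPKM (SD, n = 3), and their ranges overlapped. Cat and Sod2 followed at 14.5 ± 3.34 and 13.1 ± 3.36 FPKM and also overlapped each other. The glutathione synthesis, thioredoxin reductase and quinone reductase genes were low, from Gclm at 3.55 ± 0.480 through Txnrd1 and Gclc to Nqo1 at 1.34 ± 0.259 FPKM, and each overlapped its neighbour in that order. After I/R, Gpx1 stood above every other member at 358 ± 151 FPKM. Sod1 and Prdx1 came next and overlapped, then Sod2, Cat and Txnrd1 in ranges that did not touch, and Gclc, Gclm and Nqo1 overlapped at the bottom. The FPKM of the 9 genes summed to 275, 196 and 171 in sham replicates 1 to 3 and to 963, 605 and 595 in I/R replicates 1 to 3. Gpx1 supplied 27.8% to 36.7% of that sum in sham and 44.1% to 55.2% in I/R.

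**Figure D1:**
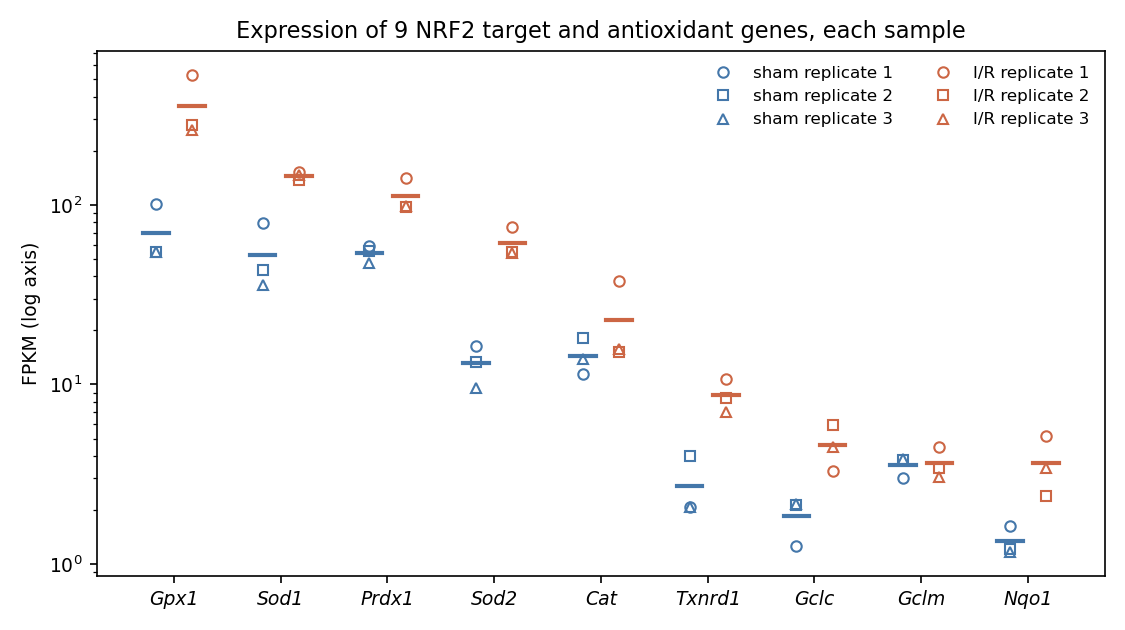
FPKM of the 9 antioxidant genes in each sample, with the FPKM axis on a log scale, blue (sham) and orange (I/R) circles, squares and triangles for replicates 1, 2 and 3, and lines for the group means. For Nqo1, Gclc, Txnrd1, Prdx1, Sod1, Sod2 and Gpx1 the I/R points all lie above the sham points, while those of Gclm and Cat overlap; FPKM is a share of the library, and centring on the cardiomyocyte markers turns the direction of Nqo1, Gclc, Txnrd1, Prdx1 and Sod1.

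The comparison of I/R with sham asks how the antioxidant genes stood after reperfusion. On the deposited FPKM scale, 7 of the 9 were called higher in I/R by limma on log2(FPKM + 0.1), with an adjusted p under 0.05 after Benjamini-Hochberg adjustment over all tested genes, and none was called lower. Of all tested genes, 25.5% were called higher and 7.36% lower. The share called higher was larger among abundant genes. Under a filter of 5 FPKM, 1892 of 3784 tested genes were called higher, with a median log2 fold change of 0.66. Of the 6 members tested there, 5 were called higher, with a median of 1.62. Over all genes, 2790 were called higher and 805 lower, and leaving out 1 sample gave 1526 (without sham replicate 3) to 2567 (without sham replicate 1) higher and 305 (without sham replicate 2) to 880 (without sham replicate 1) lower. Without sham replicate 3, 348 were lower, and without I/R replicates 1, 2 and 3 the counts were 2047, 2274 and 2348 higher and 603, 596 and 546 lower. The 7 genes were also those in which every I/R value exceeded every sham value, a pattern found in 37.2% of tested genes, while 13% had every I/R value below every sham value. The median log2 fold change of the 9 was 1.33 against 0.29 for all tested genes. Their log2 fold changes ran from 0.03 in Gclm to 2.34 in Gpx1. Only 1.76% of tested genes had a larger log2 fold change than Gpx1, 2.08% than Sod2 and 6.30% than Txnrd1, whereas 63.7% exceeded Gclm. In bulk tissue, fewer cells of a type and less RNA per cell cannot be told apart.

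Gpx1, the selenium-dependent peroxidase that reduces hydrogen peroxide with glutathione in the cytosol and mitochondria, had the largest rise among the 9. Its FPKM was 101, 54.6 and 54.6 in sham replicates 1 to 3 and 532, 279 and 262 in I/R replicates 1 to 3. The lowest I/R sample was above the highest sham sample, and in both groups replicate 1 was the highest. The log2 fold change was 2.34 (SE 0.35, 95% interval 1.55 to 3.13, adjusted p = 0.00329, limma). At least 2362 fragments stood behind each value, so counting error was small beside the spread between samples.

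Cat encodes catalase, which breaks down hydrogen peroxide in peroxisomes without a cofactor from glutathione. Its FPKM was 11.5, 18.1 and 13.8 in sham and 37.5, 15.3 and 15.9 in I/R. I/R replicate 1 lay above every sham sample, and I/R replicates 2 and 3 lay within the sham range. The log2 fold change was 0.55 (SE 0.36, 95% interval −0.25 to 1.35) and did not pass the test (adjusted p = 0.258, limma). Without I/R replicate 1 it was 0.13.

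Sod2, the manganese superoxide dismutase of the mitochondrial matrix, was 16.3, 13.4 and 9.62 FPKM in sham and 75.8, 54.9 and 53.9 FPKM in I/R. Each I/R sample held more than 3 times the highest sham value. It rose by 2.24 on the log2 scale (SE 0.27, 95% interval 1.64 to 2.83, adjusted p = 0.00151, limma), the lowest adjusted p of the 9 genes. Sod1, the copper and zinc superoxide dismutase of the cytosol, was 79.4, 43.4 and 36.0 FPKM in sham and 153, 138 and 146 FPKM in I/R. The groups did not overlap, and the I/R samples lay closer together (SD 7.76) than the sham samples (SD 23.2), among which replicate 1 was high. It rose by 1.54 on the log2 scale (SE 0.31, 95% interval 0.86 to 2.22, adjusted p = 0.00655, limma).

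Txnrd1, the selenium-dependent cytosolic reductase that keeps thioredoxin reduced and a textbook NRF2 target, was 2.09, 3.98 and 2.08 FPKM in sham and 10.8, 8.42 and 7.01 FPKM in I/R. Sham replicate 2 was higher than the other two sham samples and still below every I/R sample. It rose by 1.69 on the log2 scale (SE 0.30, 95% interval 1.03 to 2.36, adjusted p = 0.00448, limma). Prdx1, a cytosolic peroxiredoxin that thioredoxin recycles, was 59.0, 55.6 and 47.7 FPKM in sham and 141, 97.8 and 98.8 FPKM in I/R. The groups were well apart, with I/R replicate 1 the highest. The log2 fold change was 1.04 (SE 0.24, 95% interval 0.49 to 1.58, adjusted p = 0.0118, limma). Without sham replicate 3 it was 0.95 and the adjusted p became 0.0527 in the same fit by limma.

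Gclc and Gclm encode the catalytic and the modifier subunit of glutamate-cysteine ligase, which carries out the rate-limiting step of glutathione synthesis, and Gclc passed the test while Gclm did not. Gclc was 1.26, 2.13 and 2.16 FPKM in sham and 3.31, 5.96 and 4.50 FPKM in I/R. Replicate 1 was the lowest sample of both groups, and the groups did not overlap. Gclc rose by 1.26 on the log2 scale (SE 0.29, 95% interval 0.60 to 1.92, adjusted p = 0.0115, limma). Gclm was 2.996, 3.79 and 3.86 FPKM in sham and 4.49, 3.44 and 3.04 FPKM in I/R. I/R replicate 1 was above all sham samples, and the other I/R samples lay among them. The log2 fold change of Gclm was 0.03 (SE 0.23, 95% interval −0.49 to 0.56, adjusted p = 0.928, limma), and without either replicate 1 its sign turned, to −0.08 without sham replicate 1 and −0.12 without I/R replicate 1. Gclm is one of the 4 genes with an antioxidant response element core in its promoter.

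Nqo1, the quinone reductase often used as a readout of NRF2, was the least abundant of the 9 in sham. It was 1.64, 1.21 and 1.17 FPKM in sham and 5.16, 2.39 and 3.41 FPKM in I/R. The lowest I/R sample was above the highest sham sample. Nqo1 rose by 1.33 on the log2 scale (SE 0.30, 95% interval 0.67 to 1.999, adjusted p = 0.00995, limma). Its values rest on 95 to 322 recovered fragments a sample. The lowest recovered count has an exact 95% Poisson interval of 76.9 to 116 fragments, which covers counting error only.

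The scale on which the samples are compared changed the number of these genes called. With the mitochondrially encoded mRNAs left out and the libraries rescaled, Txnrd1, Sod1, Sod2 and Gpx1 were still called higher, with log2 fold changes of 0.93, 0.76, 1.45 and 1.55, and Nqo1, Gclc and Prdx1 were not. On that scale 7.06% of all tested genes were called higher and 26.9% lower. When each sample was centred on the mean log2 value of its 6 cardiomyocyte markers, no member was called higher and Gclm, Prdx1 and Cat were called lower, with log2 differences of −2.19, −1.18 and −1.67. On that scale 0.329% of all tested genes were called higher and 80.7% lower. With centring on the median of all genes, the 7 calls stood beside 18.5% of tested genes higher and 14.2% lower. With quantile normalization 5 members were called higher, without Prdx1 and Sod1, beside 13.2% of tested genes higher and 14.2% lower. With the replicate number as a block the 7 calls stood beside 28.2% higher and 8.18% lower. The part that the mitochondrial share and the cardiomyocyte RNA played in the rise of the members was not tested.

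**Figure D2:**
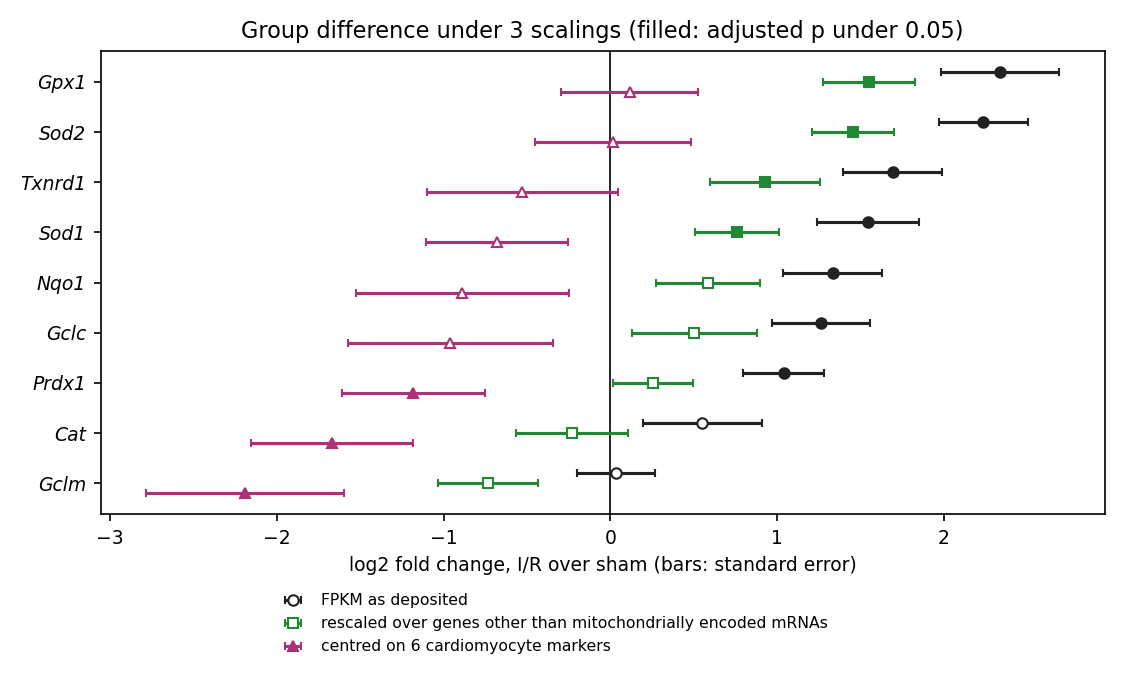
Log2 fold change of each of the 9 genes, I/R minus sham, on the deposited FPKM scale (black circles), rescaled without the mitochondrially encoded mRNAs (green squares) and centred on the 6 cardiomyocyte markers (purple triangles), with bars for the standard error and filled symbols for an adjusted p under 0.05. All 9 genes move to the left from scale to scale, and with centring on the cardiomyocyte markers Sod2 and Gpx1 sit at 0.02 and 0.12 while the other 7 lie below 0.

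Set against the cardiomyocyte markers of the same sample, the 9 genes fell into those whose groups overlapped and those whose groups did not. The mean log2 marker value was 9.31, 8.18 and 7.75 in sham and 11.04, 10.4 and 10.4 in I/R, a difference of 2.22. The single markers were far apart, from 0.82 in Ryr2, whose groups overlapped, to 3.79 in Actc1, so their mean does not stand for each. Sod2 and Gpx1 differed from the mean marker change by 0.02 and 0.12 (SE 0.47 and 0.41, limma). Their groups overlapped (two-sided exact permutation p = 1 and 0.6). Txnrd1 and Gclc lay at −0.53 and −0.96, also with overlap (exact permutation p = 0.4 and 0.3). In Nqo1, Sod1, Prdx1, Cat and Gclm every I/R value relative to the markers was below every sham value, at −0.89, −0.68, −1.18, −1.67 and −2.19. Each exact permutation p was 0.1, the smallest that 3 against 3 samples can give (0.18 after adjustment over the 9 genes). On this scale 80.7% of all tested genes were called lower by limma. The median of all tested genes was −1.93 and that of the members −0.89. The share of all genes with groups apart on this scale was not computed.

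Ratios within a library do not depend on how it was scaled, and 4 pairs of members were compared in this way. The ratio of Sod2 to Sod1, the mitochondrial to the cytosolic dismutase, was 0.206, 0.309 and 0.267 in sham and 0.495, 0.399 and 0.369 in I/R. It was higher in every I/R sample, by 0.70 on the log2 scale. The ratio of Gclm to Gclc was 2.38, 1.78 and 1.78 in sham and 1.36, 0.578 and 0.675 in I/R. The modifier subunit mRNA thus exceeded the catalytic one in all sham samples and in I/R replicate 1, and was below it in I/R replicates 2 and 3, with a log2 difference of −1.28. The ratio of Cat to Gpx1, which like Prdx1 encode enzymes that remove hydrogen peroxide, was 0.114, 0.331 and 0.254 in sham and 0.0706, 0.0547 and 0.0605 in I/R. It was lower in every I/R sample, by −1.78 on the log2 scale. For these 3 pairs the two-sided exact permutation p was 0.1 (0.133 adjusted over the 4 pairs), which is as low as this design allows. How often the ratios of other gene pairs keep the groups apart was not computed. For single genes, 37.2% of those tested had groups apart with I/R higher and 13% with I/R lower. The part that the mix of cells played in these ratios was not tested. The ratio of Txnrd1 to Prdx1 was 0.0355, 0.0716 and 0.0437 in sham and 0.0766, 0.0861 and 0.0709 in I/R, and its groups overlapped (exact permutation p = 0.2, adjusted p = 0.2).

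**Figure D3:**
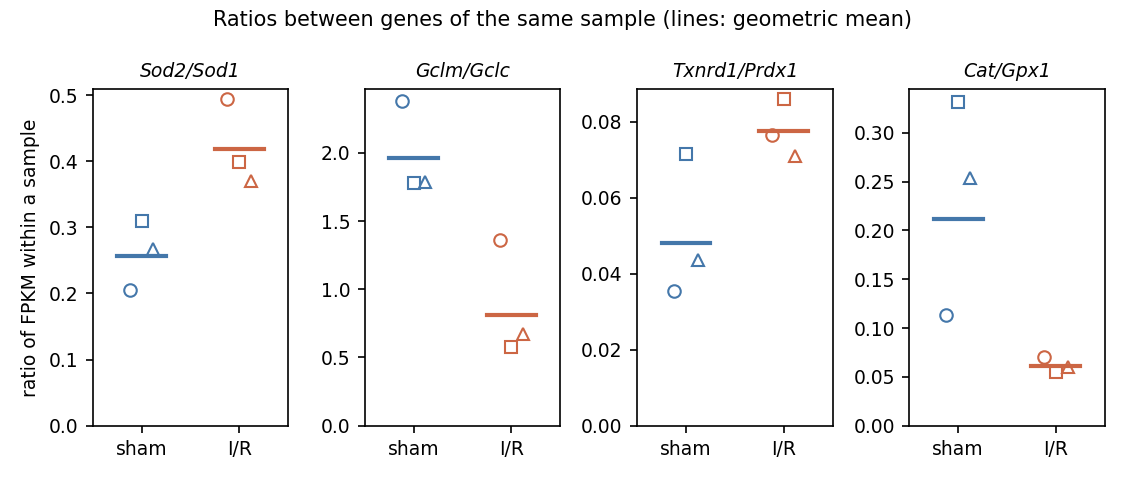
Within-sample FPKM ratios of 4 pairs of antioxidant genes in sham (blue) and I/R (orange), on linear axes that start at 0, with circles, squares and triangles for replicates 1, 2 and 3 and lines for the geometric means. The groups are apart for Sod2/Sod1, Gclm/Gclc and Cat/Gpx1 and overlap for Txnrd1/Prdx1.

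Of 8 genes tested that control NRF2, 2 were called higher and none lower, a share close to the 25.5% of all tested genes called higher, and their median log2 fold change was 0.42 against 0.29 for all. Nfe2l2 itself was 6.34, 9.04 and 7.48 FPKM in sham and 8.74, 11.9 and 8.72 FPKM in I/R, with overlapping groups and a log2 fold change of 0.36 (adjusted p = 0.274, limma). Keap1, which encodes the inhibitor, had a log2 fold change of 0.09 (adjusted p = 0.809, limma), and Bach1, a repressor that competes for the same elements, had 0.21 (adjusted p = 0.657, limma). Maff, a small MAF partner, was 8.56, 6.89 and 5.93 FPKM in sham and 28.4, 40.9 and 31.4 FPKM in I/R. It rose by 2.22 on the log2 scale (adjusted p = 0.00105, limma) and changed by −0.00 with centring on the cardiomyocyte markers. Nfe2l1, a relative of NRF2 that also binds such elements, was called higher at 0.87 (adjusted p = 0.0483, limma), a call lost in 11 of 19 alternatives.

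Among 21 other NRF2 targets tested, 9 were called higher and 1 lower, beside 25.5% and 7.36% of all tested genes, and the median log2 fold change was 0.73. Hmox1, heme oxygenase, which degrades heme, was 4.50, 3.97 and 3.02 FPKM in sham and 13.5, 23.9 and 25.03 FPKM in I/R. It rose by 2.38 on the log2 scale (adjusted p = 0.00159, limma) and stayed above 0, at 0.16, with centring on the cardiomyocyte markers. Gstm2, a glutathione transferase, rose by 1.88 (adjusted p = 0.00724, limma), and Ugdh, which makes the UDP-glucuronate used in conjugation, rose by 1.51 (adjusted p = 0.0158, limma), though 6 of 18 alternatives did not keep the Ugdh call and 2 of 19 did not keep that of Gstm2. With centring on the cardiomyocyte markers these were −0.34 in Gstm2 and −0.71 in Ugdh. Abcc1, a pump that exports glutathione conjugates, went the other way. It was 1.57, 2.22 and 1.54 FPKM in sham and 0.606, 0.864 and 0.515 FPKM in I/R, and fell by 1.31 on the log2 scale (adjusted p = 0.00928, limma). Its call held in all 18 alternatives in which it could be tested.

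The peroxiredoxin and thioredoxin list also holds glutaredoxins, methionine sulfoxide reductases, sestrins and mitochondrial forms. It had 13 of 19 genes called higher and none lower, beside 25.5% and 7.36% of all tested genes, with a median log2 fold change of 1.15. Txn1, the thioredoxin that Txnrd1 reduces, was not among those called. Prdx3, the peroxiredoxin of mitochondria, rose by 2.08 (adjusted p = 0.00408, limma). The largest changes after it were those of Msrb3, a methionine sulfoxide reductase, at 1.79, Prdx2, another cytosolic peroxiredoxin, at 1.78, and Prdx5 at 1.74, and the adjusted p of these 3 was 0.00332, 0.00401 and 0.00593 by limma. Each of these 4 lay below 0 with centring on the cardiomyocyte markers, from −0.14 in Prdx3 to −0.48 in Prdx5.

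Of 12 other genes of superoxide dismutases, glutathione peroxidases and glutathione handling, 6 were called higher and none lower, beside 25.5% and 7.36% of all tested genes, with a median of 0.71. Mgst3, a microsomal glutathione transferase, rose by 2.15, Gstk1, a mitochondrial and peroxisomal one, by 1.98, and Park7, which encodes the redox-sensitive protein DJ-1, by 1.85, with adjusted p of 0.00897, 0.00427 and 0.00576 by limma. Gpx4, the peroxidase that reduces lipid hydroperoxides in membranes, rose by 1.11 (adjusted p = 0.0162, limma), but 6 of 19 alternatives did not call it higher. All 4 lay below 0 with centring on the cardiomyocyte markers.

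Of 7 genes tested that make superoxide, 2 were called higher and 1 lower, close to the 25.5% and 7.36% of all tested genes, and their median log2 fold change was 0.20 against 0.29 for all. Ncf1, the organiser of the phagocyte NADPH oxidase, rose by 1.55 (adjusted p = 0.0069, limma). Ncf4, another subunit of that complex, was called higher at 0.89 (adjusted p = 0.0371, limma), and Xdh, the xanthine dehydrogenase that can act as an oxidase, was called lower at −0.63 (adjusted p = 0.0499, limma), but 10 of 18 and 10 of 19 alternatives changed these calls. Over the 67 related genes tested, 32 were called higher and 2 lower, beside 25.5% and 7.36% of all tested genes. Their median was 0.77 against 0.29. The count of higher genes was 17 without sham replicate 2, beside 1932 of 10804 tested genes, and 20 without sham replicate 3, beside 1526 of 10922. Under a filter of 5 FPKM, 29 of 48 related genes were called higher, beside 1892 of 3784 tested genes. By list these were 3 of 6 NRF2 regulators, 8 of 14 other targets and 10 of 13 peroxiredoxin and thioredoxin genes. In the other lists they were 7 of 11 dismutase, peroxidase and glutathione genes and 1 of 4 superoxide sources.

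**Figure D4:**
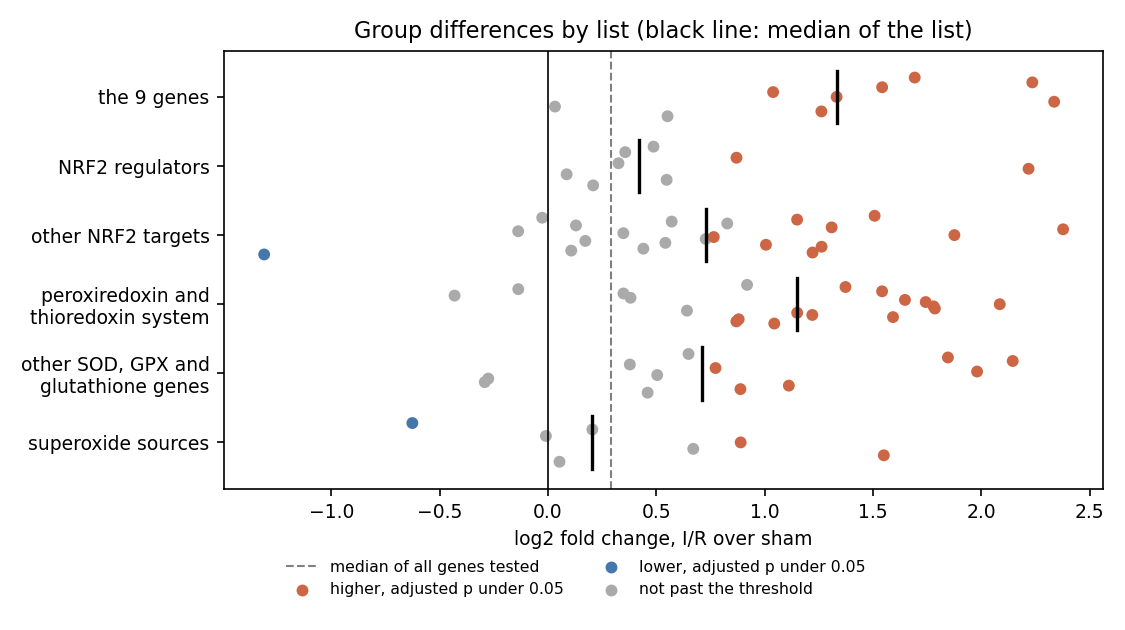
Log2 fold change, I/R minus sham, of each tested gene of the 9 members and the 5 related lists on the deposited FPKM scale, with orange points called higher, blue points called lower and grey points past no threshold (adjusted p under 0.05), black lines for the list medians and a dashed line for the median of all tested genes. The members' median is 1.33, those of the related lists run from 0.20 to 1.15, and with centring on the cardiomyocyte markers no gene of any list was called higher.

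Markers of other cells in the heart are set beside these genes, with 25.5% of all tested genes called higher and 7.36% lower. Of neutrophil and monocyte markers, 3 of 5 tested were called higher (median 1.598), with a summed FPKM of 51.5 to 67.2 in sham and 78.5 to 144 in I/R. Of 7 macrophage markers, 1 was called higher and 2 lower (median 0.30), of 7 fibroblast markers 2 were called higher (median 0.57), and of 6 endothelial and 4 red blood cell markers none was called (medians 0.01 and −0.19). No marker listed with a row was at 0 in all samples. The part of these cells in the members' values was not tested.

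Across the 6 samples, the pattern of Gpx1 was shared with a large number of genes and that of Gclm with few. By Pearson's r of log2(FPKM + 0.1), over genes averaging 5 FPKM or more, the genes most like Gpx1 were Mdh1, the cytosolic malate dehydrogenase, Gmpr, a GMP reductase, and Tomm5, part of the mitochondrial import channel, each with r = 0.999. An r above 0.95 with Gpx1 was found for 998 of 3783 genes. The genes most like Gclm were Nmd3, which acts in export of the large ribosomal subunit, Mat2b, a subunit of methionine adenosyltransferase, and Rnf181, a ubiquitin ligase, with r of 0.971, 0.963 and 0.946, and only 2 of 3784 genes passed 0.95. These correlations are over 6 samples that share 2 conditions and the library scaling, and are given as a description.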

How the data were processed

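The authors deposited 1 table of FPKM values for the 6 samples. The submitters' processing notes name STAR and HTSeq, without versions, and the genome build and annotation are not given in the sources used here. A stranded total RNA kit was used. Rows with the same symbol were summed. Genes averaging 0.5 FPKM or more were fitted as log2(FPKM + 0.1) by limma 3.58.1 (R 4.3.3, eBayes with trend), with Benjamini-Hochberg adjustment over 10942 genes and a threshold of 0.05. Ratios were tested by exact two-sided permutation in SciPy 1.17.1, whose smallest p is 0.1 with 3 against 3.

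Whole fragments were recovered as the smallest whole numbers that give the deposited values (99.9% of 17863 genes above 0 in at least 2 samples, tolerance 0.0001 fragments), and voom in limma was run on them as an alternative added after the data were seen. The fit was tested on simulated data in which 100 genes were moved by 2 and 100 by 1 on the log2 scale, and no others. It recovered 64 of those moved by 2 and 13 of those moved by 1, with 4 false calls. The simulation gave 81 calls in all, against 2790 higher and 805 lower in the data. The Benjamini-Hochberg adjustment is thus stricter in the simulation, and its rates do not carry over to these data. A gene that did not pass the test may still differ. Members and lists were chosen with earlier results of these data known. Related genes were named if past the threshold and among the 4 largest absolute changes of their list, together with Nfe2l2, Keap1, Bach1 and Hmox1. Likeness was computed for the members with the highest and the lowest change.

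Replicate numbers come from the labels. Deviations from the group means of same-numbered samples correlated at 0.203, 0.117 and 0.118, each over 0.1, the minimum set for taking the numbers as pairs, and a blocked fit was added. Samples with different numbers correlated at −0.185 to 0.120, so sham replicate 3 was as close to I/R replicate 2 as to its own number, and the pairing is weak. It kept the calls of all 9 members. Genes with a close paralog or pseudogene are uncertain, since the handling of shared reads is not given in the sources used here. Alternatives were other pseudocounts, filters, scalings, rows and leaving out each sample.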

Additional observations from a re-analysis of the deposited data

How the results depend on the processing

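Every member call was kept with pseudocounts of 1 and 0.01, no filter, TPM, centring on the median, no trend, the highest row of each symbol, the replicate block and voom, and under a filter of 5 FPKM the 6 members left for testing kept theirs. The replicate block left 7 members called higher and 0 lower, with a median of 1.33, and gave 36 related genes higher and 2 lower. Quantile normalization gave 5 members called higher (without Prdx1, at 0.02, and Sod1, at 0.49), and −0.29 for Gclm and −0.24 for Cat, with 16 related genes higher and 7 lower. Rescaling without the mitochondrially encoded mRNAs gave 4 members higher, a median of 0.59, −0.73 for Gclm and −0.23 for Cat, with 14 related genes higher and 10 lower. Median centring gave −0.22 for Gclm. Centring on the cardiomyocyte markers gave 0 members higher and 3 lower, a median of −0.89, and −0.89 for Nqo1, −0.96 for Gclc, −2.19 for Gclm, −0.53 for Txnrd1, −1.18 for Prdx1, −0.68 for Sod1 and −1.67 for Cat, with 0 related genes higher and 44 lower. Related genes called lower were 1 with a pseudocount of 0.01, a filter of 5 FPKM, TPM, no trend and voom. Leaving out each sample in turn gave 6 to 7 members higher, medians of 1.31 to 1.58, −0.12 to 0.15 for Gclm, 17 to 30 related genes higher and 1 lower each time. Over all genes these fits called 1526 to 2567 higher and 305 to 880 lower. The scalings differ by construction in what they hold equal between samples, and the cause of the other changes was not tested. Of all 10942 genes tested, 2790 were called higher and 805 lower. The counts were 1526 and 348 of 10922 without sham replicate 3, and 1932 and 305 of 10804 without sham replicate 2. Of the same 10942 genes they were 1441 and 1559 with quantile normalization, 2020 and 1554 centred on the median, and 36 and 8827 centred on the cardiomyocyte markers. They were 2775 and 783 with a pseudocount of 1, 2790 and 784 with 0.01, and 2671 and 808 with no trend. Other numbers of genes were tested in the rest. They were 791 and 3010 of 11209 rescaled, 3477 and 527 of 11335 in TPM, and 1892 and 166 of 3784 under a filter of 5 FPKM. With no filter they were 2198 and 639 of 19226, and with voom 2899 and 852 of 10817. Counting error weighs most on Nqo1, Gclc and Gclm, with at least 95, 162 and 168 fragments in each sample.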

Other observations

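Where the superoxide dismutase and thioredoxin families have forms in more than 1 place in the cell, the changes were uneven. These genes were chosen after their values were seen, and the differences between forms were not tested. Sod3, the extracellular superoxide dismutase, was 22.8, 24.1 and 18.8 FPKM in sham and 30.5, 32.8 and 39.7 FPKM in I/R, with a log2 fold change of 0.65 that missed the threshold (adjusted p = 0.0519, limma) and passed it with the replicate block (adjusted p = 0.0418, limma). Txn2, the thioredoxin of mitochondria, was 21.0, 15.9 and 12.1 FPKM in sham and 56.1, 45.1 and 39.9 FPKM in I/R, and rose by 1.54 (adjusted p = 0.00427, limma). Its reductase Txnrd2 rose by 1.37 (adjusted p = 0.0147, limma), a call that 5 of 19 alternatives did not keep. The cytosolic reductase Txnrd1 rose by more, at 1.69 (adjusted p = 0.00448, limma). Txn1, the cytosolic thioredoxin that Txnrd1 reduces, was 75.0, 64.7 and 58.8 FPKM in sham and 86.5, 80.4 and 84.8 FPKM in I/R, with a log2 fold change of 0.35 that did not pass the test (adjusted p = 0.247, limma). Centred on the cardiomyocyte markers, Sod3, Txn2, Txnrd2, Txnrd1 and Txn1 all lay below 0.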
